A study of Homo sapiens with 62 samples.

Results

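Clade B serpins were followed as 9 genes, SERPINB1, SERPINB3, SERPINB4, SERPINB5, SERPINB6, SERPINB7, SERPINB8, SERPINB9 and SERPINB13, picked by name from tables of 29794 genes. Each was read by SLAM-seq, in new RNA and in total RNA, in 2 cell lines of pancreatic ductal adenocarcinoma (PDAC). AsPC-1 stands for the classical subtype and T3M-4 for the basal-like one. The method feeds cells 4-thiouridine (4sU), here for 2 h, and recognises RNA made meanwhile by T>C conversions in its reads. AsPC-1 gave 42 of the 62 libraries and T3M-4 the other 20. The study asked which genes depend directly on the transcription factor KLF5, and whether blocking the ATPases RUVBL1 and RUVBL2 acts on the same genes.

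All libraries, controls included, came from cells of the genotype FKBP12-F36V-FLAG-KLF5 in which endogenous KLF5 had been targeted with a guide RNA (sgEndogenousKLF5). The tagged KLF5 came from a lentivirus in cells with stable Cas9 and drug selection, the sources used here mention no single clones, and KLF5 levels in these cells therefore need not be those of the parental lines. dTAGv-1, which degrades the tagged protein, was given for 4 h in the dTAG libraries, and its inactive analogue in the NEG libraries, with 10 libraries each in AsPC-1 and 4 each in T3M-4. CB-6644, which inhibits the RUVBL1/2 ATPase, was given for 4 h (5 libraries in AsPC-1 and 4 in T3M-4) or 12 h (4 in AsPC-1), and NVP-2, an inhibitor of the transcription kinase CDK9, for 4 h (4 in each line). DMSO, the solvent, was the control of both, with 5 and 4 libraries at 4 h in AsPC-1 and T3M-4 and 4 at 12 h in AsPC-1. Library numbers such as 2.1 give the experiment and the library within it. AsPC-1 had 3 dTAG experiments and T3M-4 had 2. The study's legends call these biological replicates in some places and, in another, independent experiments with 2 biological replicates per condition. Libraries of the same experiment may thus be biological or technical repeats, and p-values over libraries measure only the spread between these libraries.

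Serpins are protease inhibitors that offer an exposed loop as bait. The protease cuts the loop, the serpin changes shape, and the enzyme is trapped and distorted. Clade B members lack a classical signal peptide and act mainly inside the cell, where they guard it against its own lysosomal proteases or those of leukocytes. In epithelia several of them mark squamous differentiation, and SERPINB5 (maspin), which does not inhibit proteases, is widely used as a marker of pancreatic cancer cells. On GRCh38 (hg38) with GENCODE 44, SERPINB1 (chr6:2832332-2841959), SERPINB9 (chr6:2887270-2903309) and SERPINB6 (chr6:2948159-2972165) lie on the minus strand of chromosome 6. SERPINB5 (chr18:63476958-63505085), SERPINB13 (chr18:63586989-63604639), SERPINB4 (chr18:63637259-63644256), SERPINB3 (chr18:63655197-63661893), SERPINB7 (chr18:63752935-63805376) and SERPINB8 (chr18:63970029-64019779) form the cluster on chromosome 18, with SERPINB4 and SERPINB3 on the minus strand and the others on the plus strand. Only the annotated 3′UTR of each gene was counted.

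KLF factors bind GC-rich boxes, so the 250 bases before the annotated start of each member were searched on both strands for CCNCNCCC (GGGNGNGG on the other strand). Of 35116 RefSeq promoters on GRCh38.p14, 53.4% held this pattern in the same window, and 9 of 14 windows of 7 of the 9 members did. The 3 promoters whose genes fell with dTAG in T3M-4 are shown with that of SERPINB13, the next of the 9 members after SERPINB5 on chromosome 18. They are written from 5′ to 3′ on the gene's own strand, with every match in capitals.

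SERPINB5: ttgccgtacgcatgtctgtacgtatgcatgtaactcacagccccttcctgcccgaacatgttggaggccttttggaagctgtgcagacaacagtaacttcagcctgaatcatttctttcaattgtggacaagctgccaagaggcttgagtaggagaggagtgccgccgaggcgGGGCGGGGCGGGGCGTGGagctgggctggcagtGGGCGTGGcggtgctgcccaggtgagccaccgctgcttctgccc

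SERPINB1: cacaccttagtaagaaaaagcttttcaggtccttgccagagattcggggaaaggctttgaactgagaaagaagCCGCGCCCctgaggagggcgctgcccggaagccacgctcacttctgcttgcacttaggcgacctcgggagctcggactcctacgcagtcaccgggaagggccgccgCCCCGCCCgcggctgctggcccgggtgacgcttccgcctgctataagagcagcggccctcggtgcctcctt

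SERPINB9: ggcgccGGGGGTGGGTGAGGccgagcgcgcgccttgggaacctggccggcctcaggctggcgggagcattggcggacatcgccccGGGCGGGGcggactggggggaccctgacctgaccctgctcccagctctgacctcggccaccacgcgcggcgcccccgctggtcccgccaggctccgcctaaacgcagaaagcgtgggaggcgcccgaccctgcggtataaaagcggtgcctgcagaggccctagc

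SERPINB13: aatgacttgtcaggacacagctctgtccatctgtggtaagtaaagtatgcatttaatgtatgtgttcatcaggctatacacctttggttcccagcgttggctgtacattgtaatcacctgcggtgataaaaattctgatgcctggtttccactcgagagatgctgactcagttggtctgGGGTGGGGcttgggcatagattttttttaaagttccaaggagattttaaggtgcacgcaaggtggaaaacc

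The SERPINB5 window (chr18:63476708-63476957, plus strand) held 4 matches, beginning 77, 72, 67 and 44 bases before the start. The first 3 of them overlap and form 1 run. The SERPINB1 window (chr6:2841864-2842113, minus strand) held 2, at 177 and 71 bases, and the SERPINB9 window (chr6:2903310-2903559, minus strand) held 3, at 244, 238 and 165 bases. The SERPINB13 window (chr18:63587093-63587342, plus strand) held 1, at 71 bases. The 4 windows of SERPINB6, which was not called with dTAG in either line, held 2, 4, 4 and 0. The SERPINB3 window held 1, and the 3 windows of SERPINB7 held 1, 0 and 0. The windows of SERPINB4 and SERPINB8 held none. Whether the number of matches goes with the response was not tested. A match is a run of letters, not a binding site.

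Depth was ample for the abundant members, while the rarest gave few or no T>C reads. Libraries held 82.7 to 200.3 M reads in AsPC-1 and 111 to 245 M in T3M-4. T>C reads came to 8.30 to 18.3 M and 13.6 to 27.98 M, except in NVP-2 libraries, which held 2.24 to 3.52 and 3.71 to 4.98 M. With NEG the median gene had 14.5% T>C reads in AsPC-1 and 17.2% in T3M-4. CPM are counts scaled to library size across all libraries of a line (TMM). All 5 epithelial markers exceeded 10 RPM (reads divided by the library total, without TMM) in both lines. The summed basal-like markers (TP63, KRT5, KRT17, S100A2 and KRT6A) had a median of 3535 RPM in T3M-4 and 26.7 in AsPC-1, while the classical markers HNF4A and LGALS4 were above 10 RPM only in AsPC-1, where GATA6, TFF1 and TFF2 were below 5. KLF5, the targeted gene, is degraded as a protein, so its 3′UTR reads check no label. They were higher after dTAG, with 152 ± 18.9 T>C CPM against 101.2 ± 19.5 in AsPC-1 (SD, n = 10 each) and 1000.5 ± 84.5 against 532 ± 42.7 in T3M-4 (n = 4 each).

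The members differed widely between the lines in total RNA. In NEG libraries 8 of 9 were higher in T3M-4 than in AsPC-1 (edgeR, adjusted p under 0.05), against 33.5% of all genes tested. SERPINB13, SERPINB4, SERPINB3 and SERPINB7 had 40, 0, 2 and 28 reads over the 10 AsPC-1 NEG libraries. They passed the count filter only through T3M-4, so their direction was largely set by that filter. The count of 8 is therefore not read against the share of all genes. SERPINB1, an inhibitor of neutrophil elastase, cathepsin G and proteinase 3, had 229, 215, 206 and 201 CPM of all reads in the 4 T3M-4 libraries. The 10 AsPC-1 libraries ran from 19.5 to 33.4, with a median of 23.4, far below all of these. The log2 difference was 2.97 (SE 0.15, adjusted p 3.21e-10). SERPINB9, which inhibits granzyme B, ran from 18.4 to 27.0 CPM in T3M-4 and from 3.86 to 7.49 in AsPC-1, a log2 difference of 1.85 (SE 0.16). SERPINB8, an inhibitor of furin, ran from 10.3 to 14.6 CPM against 1.501 to 4.45, a log2 difference of 1.98 (SE 0.26). None of these 3 overlapped between the lines.

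SERPINB6, which inhibits cathepsin G, differed less in total RNA, with 170 to 237 CPM in T3M-4 and 103 to 191 in AsPC-1. Its ranges overlapped and its log2 difference was 0.40 (SE 0.17, adjusted p 0.0451). That call was lost on leaving out any 1 T3M-4 library (adjusted p 0.100 without 1.1, 0.0570 without 1.2, 0.191 without 2.1 and 0.131 without 2.2), with no filter on low counts (0.0995) and with batch as a covariate (0.0551). Between the DMSO libraries at 4 h its log2 difference was 0.94 (edgeR adjusted p 0.00972). SERPINB5 was the member that was not called, at 29.3 to 43.4 CPM in T3M-4 and 12.6 to 39.3 in AsPC-1 (log2 difference 0.52, SE 0.30, adjusted p 0.146).

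The remaining 4 members, several of them markers of squamous epithelium, were at or near 0 in AsPC-1. SERPINB13 (headpin), an inhibitor of cathepsins L and K, had 48.8 to 55.4 CPM of all reads in T3M-4 and 0 reads in 9 of 10 AsPC-1 NEG libraries. Against a floor of 3 counts over those 9 libraries the ratio of T3M-4 to AsPC-1 was 21979. The other AsPC-1 library held 40 reads, with which the ratio was 1858, and DESeq2 did not call SERPINB13 (adjusted p 0.106). SERPINB4 had 471 reads in the 4 T3M-4 libraries and 0 in the 10 of AsPC-1, so it was at least 329-fold higher. SERPINB3, its close copy, had 8676 reads in T3M-4 and 2 in AsPC-1, both in 1 library. Without that library the ratio to a floor of 3 counts was 5369. It is not a lower bound, because the only library with reads is left out and SERPINB3 counts come in multiples of 2. SERPINB7 (megsin) had 6508 reads in T3M-4 and 28 in 3 of 10 AsPC-1 libraries, a 486-fold difference, or 755-fold without the library that held the SERPINB13 reads.

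SERPINB3 and SERPINB4 counts cannot be fully separated. Of the 30-base windows of the SERPINB3 3′UTR, 38.0% also occur in that of SERPINB4, falling to 23.4% of 50-base and 1.92% of 100-base windows. The study sequenced single-end reads of 100 bases, so the last share is the one for a read of full length within the 3′UTR. Every SERPINB3 count was a multiple of 2 and every SERPINB7 count a multiple of 4, the number of 3′UTR records each gene has in the annotation. Each read of these genes appears to enter the sum once per record, so their counting error is larger than the counts imply. SERPINB6, SERPINB8 and SERPINB13 have 25, 8 and 7 records, and their counts share no divisor above 1. Whether reads in overlapping records of these 3 genes were counted more than once was not tested. The log-scale plot of all reads in NEG libraries shows both the gap and the few AsPC-1 libraries above 0.

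**Figure D1:**
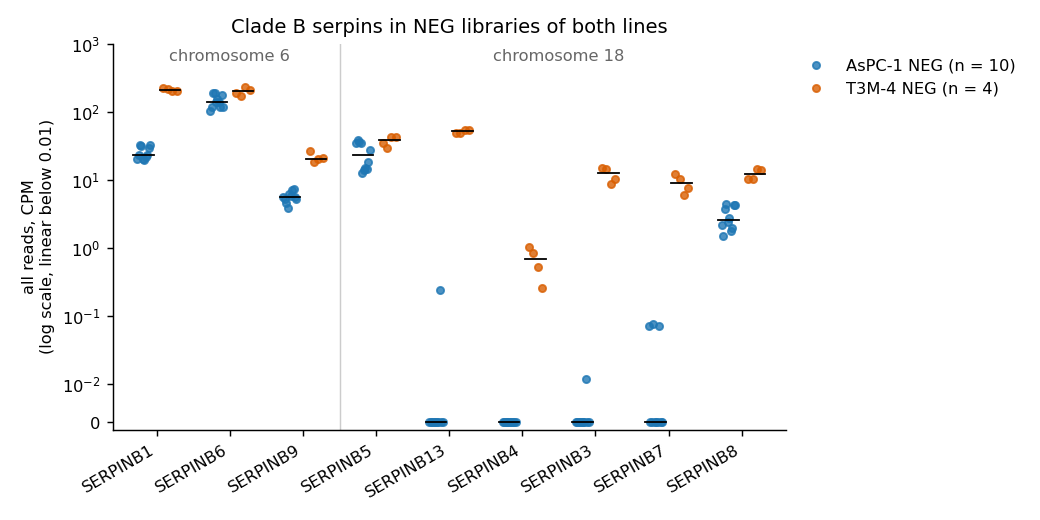
All reads in CPM (log scale, linear below 0.01) of the 9 members in NEG libraries, with 10 points for AsPC-1, 4 for T3M-4 and a bar at each median. SERPINB1, SERPINB9 and SERPINB8 do not overlap between the lines, SERPINB5 and SERPINB6 do, and SERPINB13, SERPINB4, SERPINB3 and SERPINB7 have AsPC-1 medians of 0.

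The AsPC-1 reads of SERPINB13 and SERPINB3 were gathered in a few libraries. In 5 libraries of batch 2, each numbered 2 or ending in 2 within its group, SERPINB13 had 19 to 40 reads, against 0 to 3 in the other 36 libraries with all reads. The same 5 held 28 to 46 reads of SERPINB2, against 0 to 8 in the others, and 2 to 16 of SERPINB3, against 0 to 2. SERPINB7 was spread more widely, with 28 reads in the same 5 libraries and 44 in 6 of the others, and at most 12 in a library of either kind. SERPINB4 had 0 reads in all 41. Where these reads came from was not tested, and the results that use these libraries are given without them where the call changes.

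With dTAG, new RNA of SERPINB5 was lower in both lines, and that of 2 further members in T3M-4. The study had chosen SERPINB5 as its reporter of KLF5 activity from its own data on both lines, these SLAM-seq data among them. Its decrease here is therefore a description of data that helped to select it, not independent support. In AsPC-1, 5 of 9 members had enough T>C reads to be tested and 1 was lower, SERPINB5, against 1.94% of all genes. Its 10 NEG libraries ran from 23.4 to 84.4 T>C CPM with a median of 43.8. Its 10 dTAG libraries ran from 6.50 to 20.4 with a median of 11.0. The groups did not overlap, which held for 0.418% of genes with enough T>C reads. The log2 fold change of -2.03 with an SE of 0.26 (edgeR adjusted p 6.65e-05) is a 4.09-fold decrease, from 304 to 1139 T>C reads per NEG library and 83 to 238 per dTAG library.

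The size of the SERPINB5 decrease varied with the experiment, and so did its NEG level. NEG libraries averaged 74.8 ± 11.2 T>C CPM in experiment 1 (SD, n = 4), 26.2 ± 4.01 in experiment 2 (n = 2) and 35.9 ± 10.4 in experiment 3 (n = 4). The dTAG libraries averaged 12.3 ± 3.32, 12.5 ± 1.07 and 11.5 ± 6.10 in the same order. The log2 ratios were thus -2.61, -1.07 and -1.64. SERPINB5 was called with any 1 experiment left out (edgeR adjusted p 0.000154 to 0.0361) and with counts summed per experiment (0.0262), but not in batch 2 alone, which is experiment 3 (log2 fold change -1.66, adjusted p 0.142).

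The other 4 members tested in AsPC-1 overlapped between dTAG and NEG. SERPINB1 ran from 17.99 to 25.8 T>C CPM with dTAG (median 22.8) and 18.7 to 37.7 with NEG (median 25.3), a log2 fold change of -0.25 (SE 0.13, adjusted p 0.504). SERPINB6, SERPINB8 and SERPINB9 had log2 fold changes of 0.02, 0.01 and -0.02 (adjusted p 0.983 or more), with SE of 0.22, 0.33 and 0.17. When T>C counts were scaled by all reads instead, a scaling that shifts the median gene by -0.22, SERPINB1 passed the threshold (log2 fold change -0.48, adjusted p 0.0401). SERPINB3, SERPINB4, SERPINB7 and SERPINB13 had too few T>C reads in AsPC-1 for a test.

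In T3M-4, 3 of the 8 members tested were lower after dTAG, SERPINB1, SERPINB5 and SERPINB9, against 0.745% of all genes. SERPINB5 among them is the reporter gene that the study chose with these data in view. SERPINB1 had 185, 181, 150 and 156 T>C CPM in the NEG libraries. It had 67.9, 77.7, 59.7 and 68.7 in the dTAG libraries, all below every NEG library. The fitted log2 fold change was -1.30 with an SE of 0.17 (edgeR adjusted p 0.00923), which left 40.5% of the NEG level. Leaving out dTAG library 2.1 moved its adjusted p to 0.0529, and with any 1 of the other 7 libraries left out the call held.

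SERPINB5 had 63.6, 52.5, 78.1 and 83.7 T>C CPM with NEG. With dTAG it had 21.2, 25.9, 34.9 and 29.8. The groups were separate, and the fitted log2 fold change was -1.32 with an SE of 0.22 (edgeR adjusted p 0.0243). The change was nearly the same in both experiments, with log2 ratios of -1.30 and -1.32. SERPINB5 stayed under the threshold only without NEG 1.2 (adjusted p 0.0307). It was 0.0607 without NEG 1.1, 0.0948 without NEG 2.1, 0.0872 without NEG 2.2, 0.0657 without dTAG 1.1, 0.0768 without dTAG 1.2, 0.0624 without dTAG 2.1 and 0.0658 without dTAG 2.2.

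SERPINB9 had 40.4, 27.7, 25.3 and 32.5 T>C CPM with NEG. With dTAG it had 17.4, 13.7, 13.7 and 15.3, again with no overlap. The fitted log2 fold change was -1.08 with an SE of 0.21 (edgeR adjusted p 0.0462), close to the threshold, and the call was lost without any 1 of the 8 libraries (adjusted p 0.133, 0.0846, 0.0860 and 0.1405 without NEG 1.1, 1.2, 2.1 and 2.2, and 0.0778, 0.144, 0.201 and 0.119 without dTAG 1.1, 1.2, 2.1 and 2.2). It was also lost with RLE size factors (0.0507), with no filter on low counts (0.0619) and when scaled by all reads (0.105). These 3 members were the only ones of 8 with separate groups, a pattern shown by 3.64% of genes with enough T>C reads.

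Libraries of the same experiment went together, and a fit with the experiment as a replicate block called 346 genes in T3M-4 in place of 112. The same 3 members were called in it, with adjusted p of 0.000463 for SERPINB1, 0.000944 for SERPINB5 and 0.0139 for SERPINB9. They were also called with counts summed per experiment and the replicate block (edgeR adjusted p 0.00473, 0.00693 and 0.0280). In batch 1 alone none of the members was called, and in batch 2 alone SERPINB1 (0.0346) and SERPINB5 (0.0433) were, each batch being 1 experiment of 2 against 2 libraries.

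**Figure D2:**
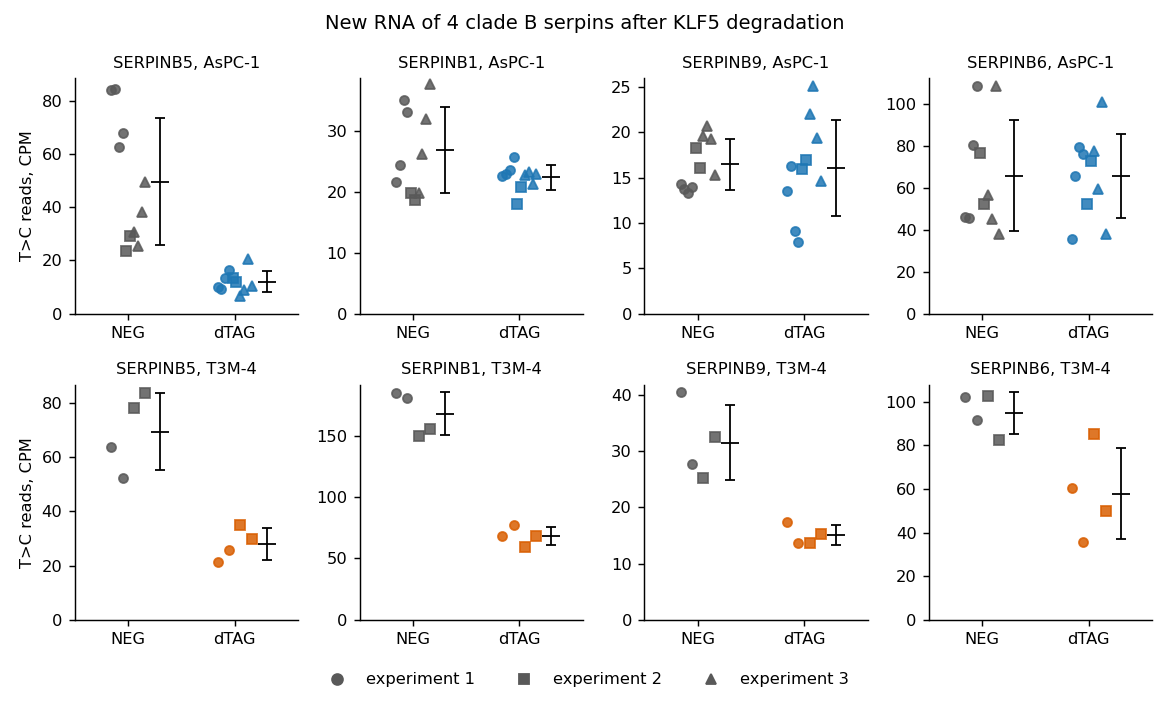
T>C reads in CPM of 4 members per library, NEG in grey and dTAG in colour, with the shape of a point giving its experiment and the bar the mean ± SD. SERPINB5 is separate between NEG and dTAG in both lines, SERPINB1 and SERPINB9 only in T3M-4, and SERPINB6 overlaps in both.

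The other 5 members tested in T3M-4 were not called, but 4 of them had negative estimates. SERPINB8 had a log2 fold change of -0.87 with an SE of 0.30 (edgeR adjusted p 0.412), SERPINB6 of -0.72 (SE 0.25), SERPINB13 of -0.60 (SE 0.22) and SERPINB3 of -0.64 (SE 0.38). SERPINB13, for example, had 55.7, 58.8, 76.2 and 88.8 T>C CPM with NEG and 45.8, 38.7, 41.7 and 59.5 with dTAG. Only the dTAG library 2.2 of SERPINB13 reached into the NEG range. SERPINB7 was the 1 positive estimate, at 0.46 (SE 0.56) from 1.41 to 6.20 T>C CPM with NEG and 1.97 to 8.35 with dTAG. Over the 8 members the median log2 fold change was -0.80, against 0.01 for all genes tested, and 6 of them had an unadjusted edgeR p below 0.05, as had 957 of all 13424 genes tested. SERPINB4 was filtered out, with 0 to 9 T>C reads per NEG library and 0 to 14 per dTAG library.

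Whether the members responded differently in the 2 lines was tested with an interaction term, and none was called, against 0.0426% of all genes (6 of 14088). The terms of SERPINB3, SERPINB7 and SERPINB13 rest on AsPC-1 libraries near 0 and are not read here. Of the other 5 members SERPINB1 and SERPINB9 had an unadjusted edgeR p under 0.05, as had 824 of all genes tested. SERPINB1 came closest, with an effect 1.04 lower on the log2 scale in T3M-4 (SE 0.23, edgeR adjusted p 0.0956). It was called by DESeq2 (adjusted p 0.00412) and with the replicate block (0.0158). SERPINB9 had the same difference, -1.04 (SE 0.31, adjusted p 0.424). For SERPINB5 the difference was 0.73 in the other direction (SE 0.43, adjusted p 0.945), so neither the smaller log2 change in T3M-4 nor equality of the lines was shown.

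Total RNA of SERPINB5, SERPINB1 and SERPINB9 was not called with dTAG in either line. In AsPC-1, SERPINB5 had 9.25 to 22.2 CPM of all reads with dTAG (9 libraries, median 20.3) and 12.6 to 39.3 with NEG (median 23.2), so that the groups overlapped. Its log2 fold change was -0.64 with an SE of 0.26 (edgeR adjusted p 0.508). It was not called, none of the 5 members was, and 0.682% of all genes were lower. With the experiment as a replicate block SERPINB5 was called (adjusted p 0.0384). At an unadjusted edgeR p under 0.05 SERPINB5 alone of the 5 members passed, as did 1056 of all 13931 genes tested, and DESeq2 called none of the 5.

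In T3M-4 none of the 9 members was called in total RNA, against 0.0127% of all genes lower, and 2 passed an unadjusted edgeR p of 0.05, as did 533 of all 15727 genes tested. DESeq2 called none of the 9 members. All 9 had estimates below 0, with a median log2 fold change of -0.48. SERPINB1 had 229, 215, 206 and 201 CPM of all reads with NEG and 189, 177, 197 and 174 with dTAG, so every dTAG library lay below every NEG library. SERPINB9 showed the same, with 27.0, 18.4, 20.4 and 21.1 against 15.9, 14.1, 15.9 and 16.9. In all reads 1.72% of genes were separated in this direction. The log2 fold changes were -0.22 (SE 0.14) for SERPINB1 and -0.48 (SE 0.16) for SERPINB9, neither called.

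The labelled share, T>C reads as a percentage of a gene's own reads, put both readouts together. SERPINB5 went from 19.0 ± 2.62% (SD, n = 10) to 7.06 ± 2.55% (n = 9) in AsPC-1, while the median gene went from 14.5% to 12.0%. The 9 dTAG libraries ran from 3.55% to 11.2% and the NEG libraries from 15.3% to 24.0%. SERPINB5 thus moved from above the median gene to below it. In T3M-4 it went from 24.0 ± 0.882% to 15.6 ± 2.97% (n = 4 each) while the median gene stood at 17.2% and 18.3%.

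SERPINB1 had a low share throughout. In T3M-4 its share went from 10.3 ± 1.11% to 5.17 ± 0.978% and in AsPC-1 from 9.96 ± 0.863% to 7.59 ± 0.936%. SERPINB9 went from 18.9 ± 2.22% to 13.2 ± 1.94% in T3M-4, and from 27.8 ± 3.34% to 23.1 ± 3.33% in AsPC-1. These shares are descriptions with no test, and in AsPC-1 the share of the median gene went the same way.

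**Figure D3:**
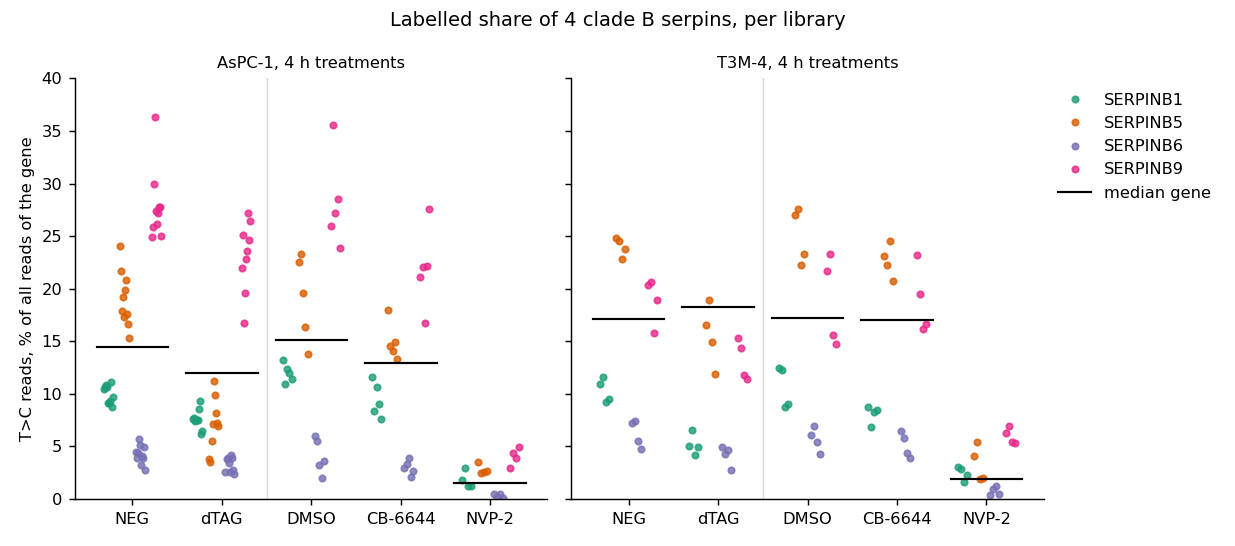
Labelled share per library (T>C reads as % of all reads of the gene, linear axis) of 4 members in the 4 h treatments of each line, with the mean over libraries of the median gene as a black bar. The mean of SERPINB5 lies above the median gene with NEG and below it with dTAG in both lines, and under NVP-2 SERPINB9 keeps 4.05% and 5.99% where the median gene keeps 1.49% and 1.88%.

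In the DMSO controls the labelled share, a measure of how much of a transcript was made during labelling, differed between members. Of the 5 members tested in AsPC-1 SERPINB6 had the lowest, 4.08 ± 1.67% (n = 5). In T3M-4 it had 5.66 ± 1.13% (n = 4), the lowest of the 8 members tested. SERPINB4, which was not, had 3.58 ± 3.26% there on 12 T>C reads in all. Of these members SERPINB9 was highest in AsPC-1 (28.2 ± 4.47%) and SERPINB5 in T3M-4 (25.1 ± 2.65%). SERPINB13 had 15.2 ± 2.61% and SERPINB3 had 9.87 ± 1.39% in T3M-4. T content of the 3′UTR, which sets how many positions can convert, ran from 24.1% in SERPINB6 to 36.7% in SERPINB3, so shares of different members are not on 1 scale. Fewer cells making a transcript and less transcript per cell cannot be told apart in these bulk libraries.

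RUVBL1/2 inhibition gave no called member in any of 3 comparisons. With CB-6644, 0% of genes passed the edgeR threshold at 4 h in AsPC-1, 0% in T3M-4 and 0% at 12 h in AsPC-1. Genes that did not pass may still have changed. The interaction between lines at 4 h also gave 0%, with 1 of 8 members (SERPINB1, log2 difference -0.65, SE 0.28) and 511 genes at an unadjusted edgeR p under 0.05. At an unadjusted edgeR p under 0.05, 482, 569 and 473 genes passed in the 3 comparisons in that order, with 0 of 5, 2 of 8 and 0 of 5 members among them. DESeq2 called 0, 5 and 20 genes in them, none of them a member, and 4 genes for the interaction, again no member. Counts summed per experiment gave 15 called genes at 4 h in AsPC-1, none of them a member. By its own analyses, the study reports that the inhibitor significantly suppressed direct KLF5 targets and lineage identity genes. Whether such genes moved together as a set was not tested here.

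The 2 members past the unadjusted threshold in T3M-4 were SERPINB1 and SERPINB5, both also lower with dTAG. SERPINB1 had 203, 193, 168 and 175 T>C CPM with DMSO. With CB-6644 it had 110.0, 109.6, 140.8 and 136 T>C CPM, all below every DMSO library, as in 1.72% of genes. The fitted log2 fold change was -0.57 with an SE of 0.17 (edgeR adjusted p 0.994). In all reads SERPINB1 was separate too, from 220 to 240 CPM with DMSO and 178 to 212 with CB-6644, as in 1.05% of genes.

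SERPINB5 in T3M-4 had 65.5, 149.5, 93.8 and 90.1 T>C CPM with DMSO and 40.5, 41.9, 80.7 and 79.0 with CB-6644. The groups overlapped, and the log2 ratio was -1.38 in experiment 1 and -0.20 in experiment 2. The fitted log2 fold change was -0.72 with an SE of 0.32 (edgeR adjusted p 0.994). SERPINB3 (-0.78, SE 0.35), SERPINB6 (-0.53, SE 0.29) and SERPINB8 (-0.32, SE 0.40) also had negative estimates, and SERPINB9 (0.02, SE 0.26), SERPINB13 (-0.06, SE 0.16) and SERPINB7 (0.00, SE 0.43) were near 0. SERPINB13 had the narrowest interval, from -0.37 to 0.26. SERPINB4 had too few T>C reads for a test.

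In AsPC-1 SERPINB5 varied more between experiments than with CB-6644. With DMSO it had 130.2, 80.1 and 55.2 T>C CPM in experiment 1 and 26.5 and 18.1 in experiment 2. With CB-6644 it had 68.2, 64.0 and 60.2 in experiment 1 and 21.1 and 20.8 in experiment 2. The fitted log2 fold change was -0.40 with an SE of 0.52 (edgeR adjusted p 0.980). SERPINB1 (0.07, SE 0.22), SERPINB6 (-0.10, SE 0.41), SERPINB8 (-0.14, SE 0.31) and SERPINB9 (0.11, SE 0.23) had estimates near 0. SERPINB3, SERPINB4, SERPINB7 and SERPINB13 were not tested at 4 or 12 h, for want of T>C reads.

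After 12 h in AsPC-1, SERPINB1 had 28.8, 26.2, 31.2 and 35.1 T>C CPM with DMSO and 20.2, 20.8, 25.7 and 27.1 with CB-6644. The groups overlapped in new RNA, with a log2 fold change of -0.36 with an SE of 0.19 (edgeR adjusted p 0.998). In all reads of SERPINB1 they did not, from 24.9 to 29.0 CPM with DMSO and 20.5 to 24.7 with CB-6644, as in 0.858% of genes. SERPINB8 had 0 T>C reads in DMSO library 1, where its level in all reads was 3.21 CPM, and 34 to 127 in the other 3, which gave a log2 fold change of 0.88 with an SE of 0.92. SERPINB5 (-0.16, SE 0.25), SERPINB6 (-0.35, SE 0.25) and SERPINB9 (0.31, SE 0.25) were not called either.

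**Figure D4:**
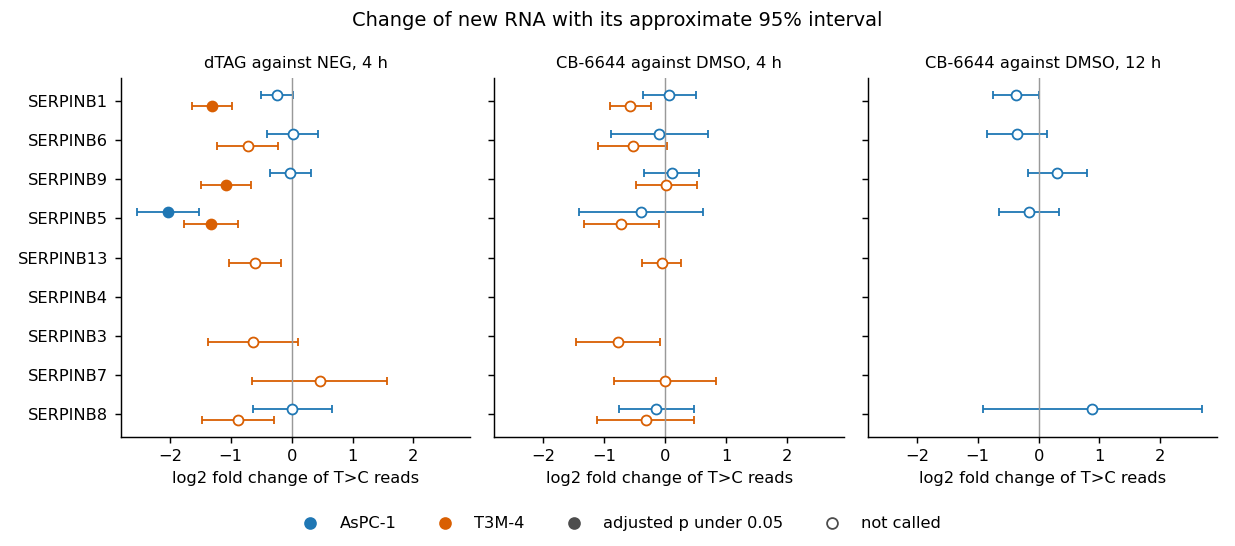
Log2 fold changes of T>C reads for the members tested in each comparison, with approximate 95% intervals, AsPC-1 in blue and T3M-4 in orange, filled where the edgeR adjusted p was below 0.05. The 4 filled points are SERPINB5 in both lines and SERPINB1 and SERPINB9 in T3M-4, all with dTAG, and no CB-6644 point is filled.

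T>C reads of most genes fell with NVP-2, and the members' direction depends on the scaling. Within T>C reads, a comparison of each gene with the rest of new RNA, SERPINB1 was higher after NVP-2 in both lines and SERPINB9 in T3M-4. In AsPC-1, 1 of 5 members was higher, against 12.9% of all genes, and in T3M-4 2 of 8, against 12.4%. These shares are close to or moderately above the background and carry no test of their own. The AsPC-1 NVP-2 libraries are all of batch 2 and the DMSO libraries of batch 1, so treatment and batch cannot be told apart there.

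SERPINB9 in T3M-4 had the larger change. It had 35.3, 43.6, 29.0 and 26.1 T>C CPM with DMSO and 84.7, 66.2, 112 and 107 with NVP-2. Every NVP-2 library was above every DMSO library, and the fitted log2 fold change was 1.51 with an SE of 0.30 (edgeR adjusted p 0.00469). SERPINB1 had 203, 193, 168 and 175 with DMSO and 387, 254, 313 and 358 with NVP-2, also separate, with a log2 fold change of 0.87 (SE 0.24, adjusted p 0.0206). These 2 of 8 members lay above all controls, against 12.2% of genes. The SERPINB1 call was lost without DMSO 2.1 (adjusted p 0.0600), without DMSO 2.2 (0.0615) and with no filter on low counts (0.0795).

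SERPINB5 and SERPINB13 lay below all DMSO libraries in T3M-4, 2 of 8 members against 22.6% of genes. SERPINB5 had 58.6, 62.3, 65.3 and 55.2 T>C CPM with NVP-2 (log2 fold change -0.68, SE 0.30, edgeR adjusted p 0.119). SERPINB13 had 33.1, 39.2, 30.6 and 26.5 with NVP-2 and 54.1, 55.5, 52.5 and 60.5 with DMSO (log2 fold change -0.73, SE 0.27, adjusted p 0.0704). SERPINB13 passed with the experiment as a replicate block (0.0460) and with DESeq2 (0.00570). SERPINB6 scattered from 46.6 to 370 T>C CPM over the 4 NVP-2 libraries and was not called (0.53, SE 0.55). Nor were SERPINB3 (-0.11, SE 0.56), SERPINB7 (0.91, SE 0.90) and SERPINB8 (-0.23, SE 0.65), and SERPINB4 was not tested.

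In AsPC-1, SERPINB1 had 32.8, 60.5, 38.0 and 40.3 T>C CPM with NVP-2 and 25.7, 24.8, 30.1, 27.5 and 25.2 with DMSO. All NVP-2 libraries were above all DMSO libraries, as in 8.87% of genes, on 64 to 130 T>C reads each. The fitted log2 fold change was 0.76 with an SE of 0.25 (edgeR adjusted p 0.0410). The call was lost without NVP-2 library 1.2 (0.124), which is one of the 5 libraries with SERPINB13 reads, without NVP-2 2.2 (0.0557), and without DMSO 1.1 (0.0665), 1.2 (0.0760), 1.3 (0.0521), 2.1 (0.0689) or 2.2 (0.0801). It was also lost with no filter on low counts (0.0998), and against batch 2 controls, both NEG at 4 h (0.129) and DMSO at 12 h (0.175). SERPINB5, SERPINB6, SERPINB8 and SERPINB9 had log2 fold changes of -0.24, -0.27, -0.24 and 0.32 and were not called, and the remaining 4 members were not tested.

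Scaled by all reads, which keeps the loss of new RNA in the comparison, all 5 members tested in AsPC-1 were lower after NVP-2, against 94.1% of all genes. In T3M-4 7 of 8 were, against 87.2%. On the log2 scale the median gene stood at -3.26 in AsPC-1 and at -3.09 in T3M-4. SERPINB5 changed by -3.53 (SE 0.63) and -3.68 (SE 0.44) in these lines. SERPINB1 changed by -2.47 (SE 0.30) and -2.17 (SE 0.35), and SERPINB9 by -2.92 (SE 0.35) and -1.61 (SE 0.38), which are smaller decreases than that of the median gene. SERPINB6, SERPINB8, SERPINB3 and SERPINB13 changed by -3.68 to -2.71 where tested, and SERPINB7 in T3M-4 was not called (-2.004, SE 1.002, edgeR adjusted p 0.0779).

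**Figure D5:**
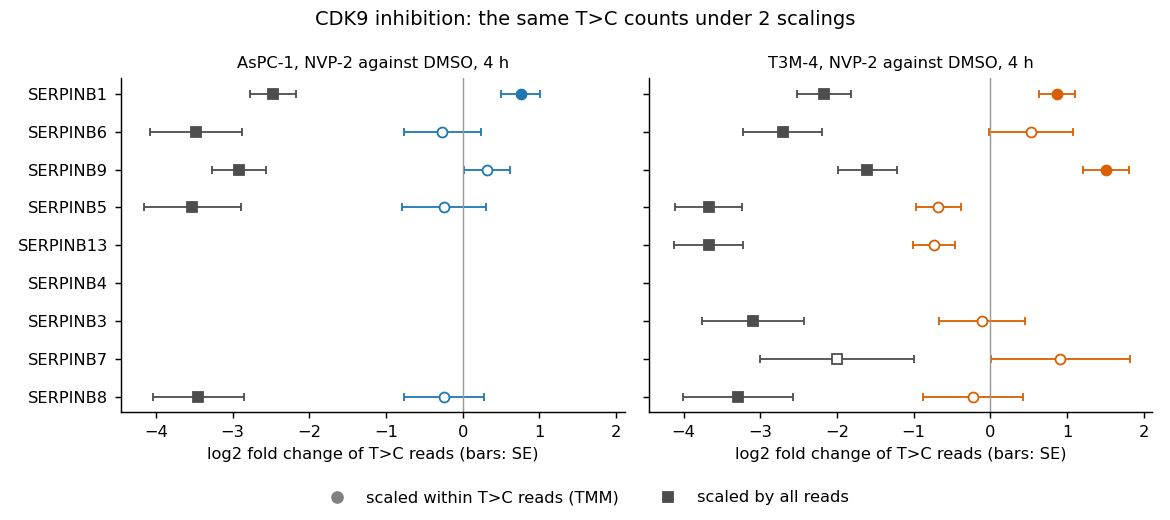
Log2 fold changes of T>C reads after NVP-2, with SE bars, scaled within T>C reads (coloured circles) or by all reads (dark squares), and filled where the edgeR adjusted p was below 0.05. The 2 scalings are about 3 units apart for every member, and under both the member farthest to the right is SERPINB1 in AsPC-1 and SERPINB9 in T3M-4.

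The labelled shares use no size factors, but they vary with labelling between libraries. In the AsPC-1 NEG libraries the median gene ran from 12.3% to 15.5%. No library lacked 4sU, so the background of T>C reads in the low shares with NVP-2 was not measured. SERPINB9 in T3M-4 went from 18.8 ± 4.27% with DMSO to 5.99 ± 0.764% with NVP-2 (n = 4 each), and SERPINB6 from 5.66 ± 1.13% to 0.743 ± 0.408%. The median gene went from 17.2% to 1.88%. In AsPC-1, where it went from 15.1% to 1.49%, SERPINB9 went from 28.2 ± 4.47% (n = 5) to 4.05 ± 0.8503% (n = 4), and SERPINB5 from 19.1 ± 4.03% to 2.80 ± 0.487%. For SERPINB5 in AsPC-1 the measures differed, since its share was above that of the median gene with NVP-2 while its T>C reads scaled by all reads changed by -3.53 on the log2 scale against -3.26 for the median gene.

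Across treatments SERPINB5 was lowest in dTAG libraries of both lines in T>C CPM, which are scaled within T>C reads. That scaling leaves out the global loss of new RNA with NVP-2. By labelled share SERPINB5 was on average lower with NVP-2 than with dTAG in both lines. In AsPC-1 its means ran from 62.0 ± 45.3 T>C CPM with DMSO at 4 h (SD, n = 5) over 50.3 ± 22.4 with NVP-2, 49.5 ± 23.8 with NEG, 46.9 ± 23.8 with CB-6644 at 4 h, 33.5 ± 9.54 with DMSO at 12 h and 29.9 ± 5.20 with CB-6644 at 12 h to 12.0 ± 4.05 with dTAG. The ranges of neighbouring groups overlapped down to CB-6644 at 12 h. The dTAG libraries, up to 20.4, lay below every NEG and CB-6644 library, but above the lowest library of DMSO at 4 h (18.1), of NVP-2 (19.5) and of DMSO at 12 h (19.9). In T3M-4 the order was 99.75 ± 35.5 with DMSO, 69.5 ± 14.2 with NEG, 60.5 ± 22.3 with CB-6644, 60.4 ± 4.37 with NVP-2 and 27.96 ± 5.82 with dTAG (n = 4 each). There the dTAG libraries, up to 34.9, lay below all others, of which the lowest was at 40.5.

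The 5 genes whose T>C levels followed SERPINB5 most closely in both lines were C6orf132, SLC2A1, LAMA3, LINC01322 and TIMP2. Their correlations over 38 AsPC-1 libraries without NVP-2 were 0.879, 0.82898, 0.828, 0.786 and 0.785 in that order, and over 16 T3M-4 libraries 0.863, 0.853, 0.886, 0.881 and 0.806. These points share treatments, experiments and depth, and the values are descriptions. SERPINB1 ranked 125 of 12471, with 0.499 in AsPC-1 and 0.845 in T3M-4, and SERPINB8 ranked 722, with 0.215 and 0.843. SERPINB6 ranked 1666, with 0.090 and 0.664, and SERPINB9 ranked 6265, with -0.167 and 0.616.

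The comparison lists gave no call with dTAG or CB-6644 and several with NVP-2. With dTAG 281 of 11696 genes tested were called in AsPC-1 and 112 of 13424 in T3M-4, and with CB-6644 0 genes were called. At these shares lists of this size would hold few calls or none, so their absence is not read as a result. Of the 4 other clade B serpins, SERPINB2 (PAI-2, an inhibitor of plasminogen activators) was the 1 tested in T3M-4. It was not called with dTAG or CB-6644 (log2 fold changes -0.61 and -0.72) and was lower with NVP-2 (-2.26, SE 0.31, edgeR adjusted p 0.000813). None of the 21 serpins of other clades, the 13 proteases that members are known to inhibit, or the 10 neighbouring genes of both clusters was called with dTAG or CB-6644 in either line. The numbers tested with dTAG were 3, 6 and 7 in AsPC-1 and 5, 7 and 8 in T3M-4. With NVP-2, 3506 of 11498 genes tested were called in AsPC-1 and 3263 of 12242 in T3M-4, in either direction. Of the proteases 1 of 6 tested was called in AsPC-1 and 3 of 7 in T3M-4. The proteases CTSH and CTSL, cathepsins of the lysosome, were higher with NVP-2 in T3M-4 (1.35, SE 0.32, and 1.23, SE 0.39) and FURIN was lower (-1.10, SE 0.36), while CTSK was higher in AsPC-1 (3.06, SE 0.81).

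With NVP-2, SERPINE2 was higher in both lines and SERPINH1 lower in AsPC-1. Of the chromosome 6 neighbours of SERPINB1, SERPINB6 and SERPINB9, 2 of 5 tested were called in AsPC-1 and 4 of 5 in T3M-4. NQO2 was higher and RIPK1 lower in both lines, and GMDS and WRNIP1 were higher in T3M-4. None of the 4 chromosome 18 neighbours was called with it. Between the lines in total RNA, 5336 of 15928 genes tested were higher in T3M-4 and 4571 lower. SERPINB2 and SERPINB12 were higher in T3M-4, with 56029 and 64 reads in its NEG libraries against 47 and 2 in AsPC-1. CTSV and KLK8, 2 of 7 proteases tested, were also higher (log2 differences 1.90, SE 0.30, and 4.89, SE 0.61). Of 7 serpins of other clades tested, SERPINA3, SERPINF1, SERPING1 and SERPINI1 were higher in T3M-4, by 3.98 to 6.36 on the log2 scale, and SERPINE2 was lower (-5.46, SE 0.50). Of the neighbouring genes, 4 tested on chromosome 18 and 6 on chromosome 6, BCL2, HMSD and WRNIP1 were higher (3.26, 5.39 and 1.203). BPHL and RIPK1 were lower (-1.15 and -0.63).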

How the data were processed

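SLAM-seq libraries (4sU for 2 h, 3′ end libraries) of AsPC-1 and T3M-4 were read from tables of counts that the authors deposited, T>C reads and all reads per gene. The authors mapped reads with slamdunk to hg38, counted them over the 3′UTR records of GENCODE 44 and summed them per gene. The slamdunk version is not given in the sources used here. There were no spike-ins and no library without 4sU. Groups came from the sample labels. The all-reads column of AsPC-1 dTAG library 3.1 was left out because it equals the T>C column of AsPC-1 DMSO 12 h library 2 at 29794 of 29794 genes, so values of all reads and labelled shares in AsPC-1 dTAG have n = 9. The tables also hold 18 unnamed columns, which were not used.

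Counts were tested with the quasi-likelihood F test of edgeR 4.0.16 (filterByExpr, TMM) in R 4.3.3 over all genes that passed the filter, with only the groups compared in each fit and Benjamini-Hochberg adjustment over all of them. The threshold was an adjusted p of 0.05. SE was taken as log2 fold change over the root of F, and 95% intervals use a normal approximation. CPM use TMM factors over all libraries of a line, and floors take 3 counts over a group and cover counting error only. Non-overlap was counted over genes with at least 10 reads in as many libraries as the smaller group has. DESeq2 1.42.0, RLE factors, no filter, scaling by all reads, batches alone, replicate blocks, counts summed per experiment and leaving out libraries (experiments for AsPC-1 dTAG) were alternatives, and leaving out the AsPC-1 libraries with SERPINB13 reads was added after seeing the data. The main dTAG tests were checked on simulated counts drawn independently for each library. These had no experiment or batch effects, so the check says nothing about spread shared within an experiment.

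Same-numbered libraries deviated from their group means together in AsPC-1 dTAG and NEG (r from 0.176 to 0.705 over 10 pairs), and in T3M-4 the experiments are the labelled batches (r from 0.427 to 0.750 for dTAG), so fits with the experiment as a block were run for these. All 9 members were followed in every comparison. Lists of 4 other clade B serpins, 21 serpins of other clades, 13 target proteases and 10 neighbouring genes were given as counts, with called genes named, except for an item that is not reported here, and the 5 genes most like SERPINB5 were those with the highest smaller correlation of the lines. Members and lists were chosen with earlier results of these data known. Promoters are from RefSeq (GRCh38.p14). All 9 members matched by symbol, and their windows do not differ from hg38. Figures used matplotlib 3.10.9.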

Additional observations from a re-analysis of the deposited data

Results flagged for a closer look

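Over 148 groups of 4 to 10 libraries, 7 member values had a highest or lowest library far from the rest by Dixon's test, close to the 1 in 20 that chance gives. Of T>C levels, SERPINB13 was low in T3M-4 CB-6644 library 1.1 (45.4 CPM, the others 55.3 to 56.2), SERPINB8 was high in AsPC-1 dTAG library 3.3 (10.2 CPM, the others 0.987 to 5.78), and SERPINB9 was high in AsPC-1 NVP-2 library 2.2 (24.6 CPM from 39 reads, the others 15.8 to 16.8). Of labelled shares, SERPINB3 was high in T3M-4 NEG library 1.2 (8.04%, the others 6.75% to 6.88%). SERPINB5 was high in AsPC-1 NVP-2 library 1.1 (3.53%, the others 2.49% to 2.61%), and SERPINB9 in AsPC-1 NEG library 1.4 (36.3%, the others 24.96% to 29.9%). SERPINB8 was high in AsPC-1 CB-6644 12 h library 2 (33.6%, the others 17.2% to 19.4%), which is one of the 5 libraries with SERPINB13 reads.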

How the results depend on the processing

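Of 1137 log2 fold changes of members under alternatives, 988 kept their direction and their side of the threshold, 78 changed sign without being called either way, 53 lost a call, 13 gained one and 5 reversed. All 5 reversals came from scaling NVP-2 T>C counts by all reads (SERPINB1 -2.47 and SERPINB9 -2.92 in AsPC-1, SERPINB1 -2.17, SERPINB6 -2.71 and SERPINB9 -1.61 in T3M-4), which keeps the global loss of T>C reads in the values.

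The number of members called with dTAG in AsPC-1, 1, became 2 scaled by all reads and 0 in all reads or in batch 2 alone. In T3M-4 the 3 members became 0 in all reads or in batch 1 alone and 0 to 2 with a library left out. With NVP-2 in AsPC-1, 1 member became 0 with no filter, in all reads, against either batch 2 control or without the libraries with SERPINB13 reads, 5 scaled by all reads and 0 to 1 with a library left out. In T3M-4, 2 became 1 with no filter, 7 scaled by all reads, 0 in all reads and 1 to 2 with a library left out. The count of 0 became 1 with the replicate block in all reads of AsPC-1 dTAG, and 1 by DESeq2 and with the replicate block in the dTAG interaction. Other than by scaling, the cause was not tested.

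Calls over all genes moved by more than 1.5 times as follows. AsPC-1 dTAG, 281 genes, gave 478 by DESeq2, 941 scaled by all reads (12 higher and 929 lower against 54 and 227), 111 in all reads, 103 in batch 1, 16 in batch 2, 438 with the experiment as replicate block, 848 with the full number as block and 36 to 256 with an experiment left out. T3M-4 dTAG, 112 genes, gave 340 by DESeq2, 346 and 299 with these blocks, 292 summed per experiment, 3 in all reads, 38 in batch 1 and 22 to 70 with a library left out. The CB-6644 counts of 0 became 15 summed per experiment and up to 1 with a library left out (AsPC-1 4 h), 5 by DESeq2 and 2 in all reads (T3M-4), and 20 by DESeq2 (12 h). NVP-2 gave 3506 genes (1488 higher and 2018 lower) in AsPC-1, with 10829 (6 and 10823) scaled by all reads and 1667 in all reads, and 3263 (1523 and 1740) in T3M-4, with 10680 (9 and 10671), 807 and 2168 to 3693 with a library left out. In all reads, AsPC-1 dTAG went from 111 to 222 by DESeq2 and with the block, and T3M-4 dTAG from 3 to 70, 82 and 0 with a library left out. The dTAG interaction went from 6 to 34 by DESeq2, 27 with the block, 2 in all reads and 1 to 8 with a library left out, and the CB-6644 interaction from 0 to 4 by DESeq2 and up to 1 with a library left out.

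The replicate block changed no other member's call than those given in the results. In AsPC-1 the CB-6644 and DMSO libraries of the same number had r from 0.033 to 0.472 at 4 h and 0.013 to 0.796 at 12 h. At 4 h they also share experiments, with a mean r of 0.143 within an experiment and -0.146 across. With the block the SE of SERPINB5 at 4 h was 0.22 in place of 0.52. The block called no member at 4 h or 12 h. No paired analysis was possible for NVP-2 in AsPC-1 because its libraries and their DMSO controls are from different batches. SERPINB3, SERPINB4, SERPINB7 and SERPINB13 were at or near 0 reads in AsPC-1, and SERPINB4 had few T>C reads in T3M-4. No response of these to a treatment was detectable there.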
